A study of Homo sapiens with 6 samples.

Results

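The transcripts examined here are 10 feedback inhibitors of ERK signalling, chosen by name, by a rule that uses no measured value, though with earlier results of these data known. They are the dual-specificity phosphatase genes DUSP1, DUSP2, DUSP4, DUSP5, DUSP6 and DUSP10, the Sprouty genes SPRY1 and SPRY2, and the Sprouty-related genes SPRED1 and SPRED2. All 10 were found among the 29810 genes of the table, and all 10 passed the minimum for the test, a mean of 0.5 FPKM (fragments scaled to exon length and to the fragments counted in the library) over the 6 libraries. The libraries came from Kasumi-1, a human acute myeloid leukemia cell line in which a translocation fuses RUNX1 to RUNX1T1. mRNA-seq was available for 3 libraries of control cells, which the methods describe as given the DMSO vehicle, and 3 libraries of cells incubated with I3, an HDAC inhibitor, at 0.25 μM. The labels and the methods give 48 h of incubation, and a figure legend of the study gives a longer time. A single cell line and 1 dose were sequenced, and the labels do not say whether the libraries of a group came from separate cultures, so the p-values measure only the spread between these libraries.

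ERK is the last kinase of the cascade that runs from growth factor receptors through RAS, RAF and MEK. Active ERK switches on genes whose products shut the cascade down again, and this gives negative feedback. The dual-specificity phosphatases remove phosphate from the threonine and the tyrosine that activate a MAP kinase, whereas Sprouty and SPRED proteins act upstream, at RAS and RAF. Because their transcripts are induced by ERK output, they are widely used as a readout of it. Kasumi-1 cells carry an activated KIT receptor, which feeds this cascade. The study examined VEGF and MAPK signalling under I3. By western blot it reported less phosphorylated ERK and no change in total ERK, after a longer incubation than the labels give. The comparison described here asks whether the transcripts of the feedback inhibitors differed between I3 and control cells.

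The promoters of 3 phosphatase genes are shown first. They are those of DUSP2, on which the results turn, and of DUSP6, the most abundant member. DUSP1 is shown as the other member with a perfect E-box among the 8 that had a window, which leaves out DUSP4 and DUSP5. The sequences are those of RefSeq on GRCh38.p14, from 250 bases before to 50 bases after the start of transcription, 5′ to 3′ on the strand of the gene. Capitals mark the E-box CACGTG and the cyclic AMP response element TGACGTCA. Both motifs read the same on both strands, and they do not overlap each other in these windows.
DUSP2, chr2:96145391-96145690, minus strand: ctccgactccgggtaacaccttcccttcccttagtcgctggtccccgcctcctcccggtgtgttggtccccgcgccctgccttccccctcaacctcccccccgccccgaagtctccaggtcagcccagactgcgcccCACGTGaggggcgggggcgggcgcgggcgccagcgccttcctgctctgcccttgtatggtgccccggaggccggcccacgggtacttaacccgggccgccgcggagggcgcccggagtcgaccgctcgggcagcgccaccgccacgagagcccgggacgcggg
DUSP1, chr5:172771146-172771445, minus strand: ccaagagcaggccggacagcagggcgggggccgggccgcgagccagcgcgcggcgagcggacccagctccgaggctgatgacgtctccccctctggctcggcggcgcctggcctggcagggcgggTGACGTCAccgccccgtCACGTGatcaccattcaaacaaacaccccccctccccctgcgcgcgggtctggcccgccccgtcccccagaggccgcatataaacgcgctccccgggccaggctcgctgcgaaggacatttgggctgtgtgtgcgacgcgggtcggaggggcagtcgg
DUSP6, chr12:89352452-89352751, minus strand: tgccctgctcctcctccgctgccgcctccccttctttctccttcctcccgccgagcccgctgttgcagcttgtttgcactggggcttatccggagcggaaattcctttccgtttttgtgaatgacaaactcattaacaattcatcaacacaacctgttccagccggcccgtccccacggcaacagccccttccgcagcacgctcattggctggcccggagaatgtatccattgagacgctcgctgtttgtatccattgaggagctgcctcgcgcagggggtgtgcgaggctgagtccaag
The windows of DUSP2 and DUSP1 each held 1 E-box, which began 113 bases before the start in DUSP2 and 108 bases before it in DUSP1. The DUSP1 window also held 1 cyclic AMP response element, which began 125 bases before the start. The DUSP6 window held neither motif. Over all 35116 promoter windows of the same length, 7.26% held CACGTG and 1.85% held TGACGTCA. The GC box GGGCGG, counted on both strands and left in lower case, occurred 3 times in DUSP2, 4 times in DUSP1 and not in DUSP6, and 45% of all windows held it. The GC content of the windows was 75.0% for DUSP2, 73.3% for DUSP1 and 58.3% for DUSP6, against a median of 58.7%. RefSeq windows were matched for 8 of the 10 members, 13 windows in all. DUSP4 and DUSP5 had no entry. Of the 13 windows, 2 held the E-box, 1 held the response element and 9 held the GC box. These matches describe the letters in the windows, and no binding was measured.

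The libraries were close in depth, at 17500320 to 18193373 reads, the totals by which the FPKM values were scaled, as found from the size of 1 read in each library. Between 8781 and 9492 genes were listed at 0 in a library. All 7 myeloblast markers were present in every library (MPO, KIT, CD34, CD33, PTPRC, RUNX1 and RUNX1T1), with a summed level of 8087 to 8926 FPKM in control and 8048 to 8627 FPKM in I3 libraries. Almost all of this sum was MPO, at 7789 to 8612 FPKM in control and 7740 to 8324 FPKM in I3 libraries. The 4 monocyte markers summed to 12.2 to 15.6 FPKM in control and 10.7 to 15.5 FPKM in I3 libraries, almost all of it from LYZ and CSF1R. CD14 was at 0 in every library but control 3. Erythroid, fibroblast and T or B cell markers summed to at most 0.350 FPKM, while EPCAM stood at 28.2 to 31.6 FPKM with KRT18 at 0 in all libraries and KRT8 at most 0.0327 FPKM. The libraries differed in a trend with gene GC content that was split unevenly between the groups. In control 1, I3 1 and I3 3 the deviation of a gene from its mean fell with its GC content (Spearman rho −0.313, −0.232 and −0.446 across 12939 genes), and in control 2, control 3 and I3 2 it rose (0.446, 0.337 and 0.262). The trend thus rose in 2 of 3 control and fell in 2 of 3 I3 libraries. Genes are not independent replicates, and these values describe the libraries only.

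No feedback inhibitor passed the call rule, an adjusted p below 0.05 in limma (Benjamini-Hochberg over 12960 genes) together with a change of 0.58 or more on the log2 scale, and neither did any other gene (0% called). voom on the rebuilt reads also called 0 of the 10, but the share it called over all of its genes is not given here. The lowest adjusted p of a member was 0.572, that of DUSP2, and the lowest of any gene was 0.309. Under a looser rule, which kept the fold and took the p before adjustment, 1 of the 10 members was lower after I3 (DUSP2), against 0.648% of all tested genes, and 0 were higher, against 0.756%. Without the fold, DUSP2 and DUSP5 were at an unadjusted p under 0.05, both lower, so 2 of 10 members stood against 4.93% of all genes. DUSP2 was the single member whose control and I3 libraries did not overlap, 1 of 10 against 9.7% of all genes. The fitted change was above 0 in 5 members and below 0 in 5, with a median of 0.016 on the log2 scale, beside 0.011 for all tested genes. The 95% interval of the change lay within 0.58 of 0 on the log2 scale for 8 of 10 members, against 81.6% of all genes. In bulk RNA such as this, fewer cells of a type and less RNA per cell cannot be told apart.

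**Figure D1:**
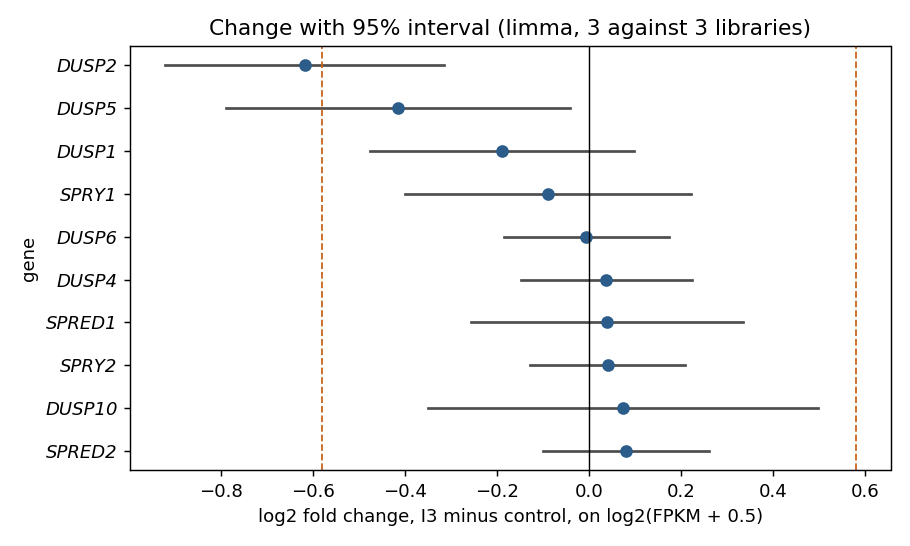
Change of each feedback inhibitor between I3 and control cells on the log2(FPKM + 0.5) scale (x axis), with 1 row per gene, points for the limma estimate and lines for its 95% interval from 3 against 3 libraries. The dashed lines stand 0.58 to either side of 0, and DUSP2 at −0.62 is the one point beyond them, while the intervals of DUSP2 and DUSP5 alone leave out 0.

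The levels of the 10 transcripts spanned 37.6-fold in Kasumi-1 cells. FPKM is given per length of exon, so levels can be set side by side between genes, but only roughly. The ranges below show the spread between libraries and not an error in the exon length, for which the annotation was not given. DUSP6 was highest, at a mean of 20.9 FPKM over the 6 libraries, above 84.9% of the tested genes. SPRY2 followed at 11.5 FPKM, then DUSP2 at 8.65, DUSP4 at 8.62 and SPRED2 at 7.22 FPKM, all above the median tested gene at 5.24 FPKM. DUSP1 (2.59 FPKM), DUSP5 (2.47 FPKM), SPRY1 (2.37 FPKM) and SPRED1 (1.88 FPKM) formed a lower set. DUSP10 was lowest at 0.555 FPKM, just above the minimum of the test, and 2.39% of the tested genes were lower. Of the 9 neighbouring pairs in this order, 4 had ranges over the 6 libraries that did not overlap, namely DUSP6 and SPRY2, DUSP4 and SPRED2, SPRED2 and DUSP1, and SPRED1 and DUSP10. The order of the other neighbours was not separated by these libraries.

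**Figure D2:**
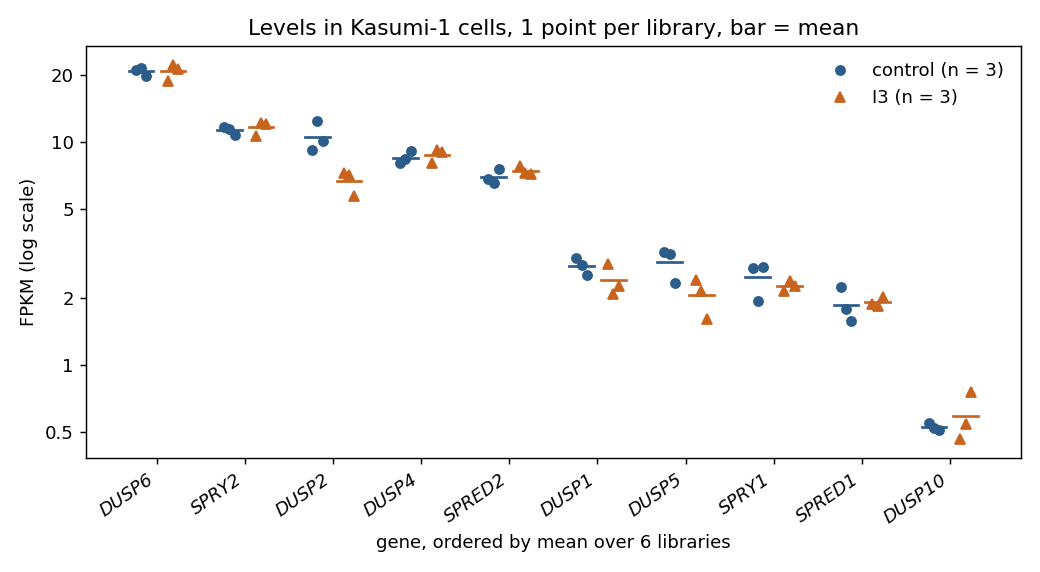
FPKM on a log axis for the 10 feedback inhibitors in each of the 3 control (circles) and 3 I3 (triangles) libraries, with bars at the group means and genes ordered by their mean over all 6. The members run from DUSP6 at 20.9 FPKM to DUSP10 at 0.555 FPKM, and the points of DUSP2 are separate between the groups.

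DUSP2 encodes PAC-1, an inducible nuclear phosphatase that is prominent in blood cells and acts on ERK and p38. The gene (ENSG00000158050) lies at chr2:96143166-96145440 on the minus strand of GRCh38, and its exons cover 1932 bases. It stood at 9.23, 12.4 and 10.1 FPKM in control 1, 2 and 3 and at 7.26, 7.13 and 5.75 FPKM in I3 1, 2 and 3. Every I3 library was below every control library, with control 2 the highest of the 6 and I3 3 the lowest. The means were 10.6 ± 1.66 FPKM in control and 6.71 ± 0.838 FPKM in I3 cells (SD, n = 3 each), a difference of −36.7%. The log2 fold change was −0.62 with a standard error of 0.13 and a 95% interval of −0.92 to −0.31. Its unadjusted p in limma was 0.00182, the rank 40 of 12960 genes, and its adjusted p was 0.572. The two-sided exact permutation test gave p = 0.1, the smallest that 3 against 3 libraries allow. The rebuilt reads were 315, 428 and 342 in control and 250, 245 and 202 in I3 libraries. The ratio of control to I3 reads was 1.58, with an exact binomial interval of 1.44 to 1.74 at 95% that covers counting error only.

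The exons of DUSP2 have a GC content of 62.9%, above that of 92.7% of the tested genes. Control 2, where DUSP2 was highest, is a library whose levels rose with GC content, and I3 3, where it was lowest, is the one whose levels fell most steeply with it. After removal of the GC trend from each library the log2 fold change of DUSP2 was −0.56 (adjusted p = 0.400 in limma). With the direction of the trend as a term in the fit it was −0.55. Both values fall short of the fold threshold. Within the libraries whose levels fell with GC content, the I3 libraries were lower than the control by 0.48 on the log2 scale (2 I3 libraries and 1 control), and within the others the difference was −0.62 (1 I3 library and 2 controls). The fold was also missed without control 2 (−0.50) and without I3 3 (−0.52). Of 18 alternatives, 4 change only the genes tested or the error and leave the fold change as it is. DUSP2 was below control in all of the other 14, and its unadjusted p was under 0.05 in all 18.

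**Figure D3:**
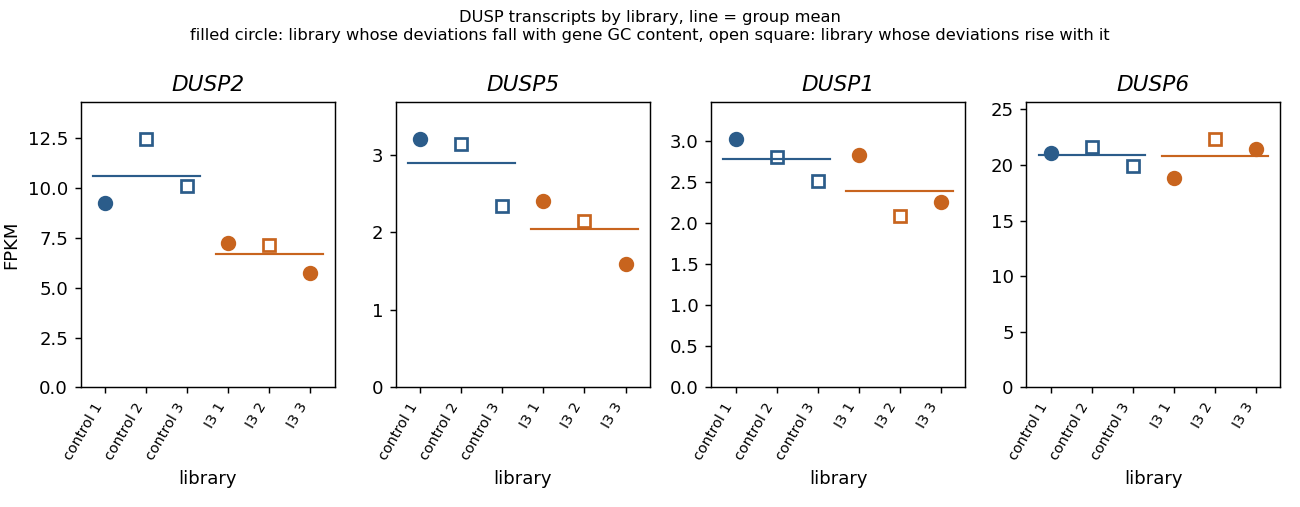
FPKM of DUSP2, DUSP5, DUSP1 and DUSP6 in each library (x axis), on axes that start at 0, in blue for control and orange for I3, with lines at the group means. Filled circles are libraries whose levels fell with gene GC content and open squares those whose levels rose, and the DUSP2 points lie between 5.75 and 7.26 FPKM in I3 and between 9.23 and 12.4 FPKM in control libraries.

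DUSP5 is a nuclear phosphatase with a strict preference for ERK. The gene (ENSG00000138166, chr10:110497838-110511544, plus strand, GRCh38) was measured at 3.20, 3.14 and 2.34 FPKM in control 1, 2 and 3. In I3 1, 2 and 3 it stood at 2.40, 2.15 and 1.60 FPKM. The groups overlapped, since control 3 was below I3 1 and above the other two I3 libraries. The means were 2.89 ± 0.482 FPKM and 2.05 ± 0.412 FPKM (SD, n = 3 each), with a log2 fold change of −0.41 and a 95% interval of −0.79 to −0.041. The unadjusted p in limma was 0.0340 and the adjusted p was 0.998, and the exact permutation test gave 0.2. Reads summed to 401 in control and 288 in I3 libraries, a ratio of 1.41 with an exact binomial interval of 1.21 to 1.65 for counting error. DUSP5 was below control in all 14 alternatives that can move its fold change, and its unadjusted p was under 0.05 in 12 of all 18. It was 0.0501 with the direction of the GC trend as a term and 0.0513 without a minimum FPKM. Without control 1, control 2, I3 2 or I3 3 it was between 0.0535 and 0.106, and leaving out those libraries gave log2 fold changes of −0.45 to −0.28. The change was larger without control 3 (−0.54), without I3 1 (−0.52) and with voom on the rebuilt reads (−0.50). It was −0.40 after removal of the GC trend. The 0.5 FPKM added before the logarithm understates the change at this level. The fold threshold was reached in 0 of the 18 alternatives. The difference of −0.41 in the main fit is below it and was not called.

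DUSP1 encodes MKP-1, an immediate early nuclear phosphatase of JNK, p38 and ERK that is also induced by stress and glucocorticoids. The gene (ENSG00000120129) lies at chr5:172768090-172771195 on the minus strand. Its levels were 3.03, 2.81 and 2.52 FPKM in control and 2.84, 2.09 and 2.26 FPKM in I3 libraries. I3 1 lay among the controls, and the groups overlapped. The log2 fold change was −0.19, with a 95% interval of −0.47 to 0.097 (limma p = 0.164, adjusted p = 0.998, exact permutation p = 0.3). DUSP1 was measured with few reads, 298 in control and 260 in I3 libraries, and the interval of their ratio, 0.983 to 1.38, includes equal levels.

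DUSP4 encodes MKP-2, an inducible nuclear phosphatase of ERK and JNK. The gene (ENSG00000120875, chr8:29333064-29350668, minus strand) stood at 8.04, 8.37 and 9.10 FPKM in control and at 8.03, 9.20 and 9.01 FPKM in I3 libraries. Both groups covered nearly the same range, with a log2 fold change of 0.038 and a 95% interval of −0.15 to 0.22 (limma p = 0.646, adjusted p = 0.998, exact permutation p = 0.8). With 3267 control and 3415 I3 reads, DUSP4 was among the more deeply covered members, and its interval leaves out changes past the fold threshold in either direction.

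DUSP6 encodes MKP-3, the cytoplasmic phosphatase that acts on ERK almost exclusively and whose transcript follows ERK output closely in many cells. The gene (ENSG00000139318) lies at chr12:89347232-89353271 on the minus strand. It was at 21.1, 21.6 and 19.9 FPKM in control and at 18.8, 22.3 and 21.4 FPKM in I3 libraries. The I3 libraries lay on both sides of the controls, and I3 1 was the lowest of the 6. The means were 20.9 ± 0.885 FPKM and 20.8 ± 1.83 FPKM (SD, n = 3 each), with a log2 fold change of −0.0056 and a 95% interval of −0.19 to 0.17 (limma p = 0.944, adjusted p = 0.999, exact permutation p = 0.9). As linear folds these bounds are 0.879 and 1.13. A gene on the opposite strand, ENSG00000274021, shares 1875 bases of exon with DUSP6. It had 0 to 3 reads per library beside 5125 control and 5196 I3 reads of DUSP6. The strand setting of the counting was not given, so these counts cannot show how reads in the shared bases were assigned. The sign of so small a change turned with the scaling, to 0.0043 after rescaling to TPM and 0.0070 after quantile normalization.

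Over the 6 libraries, the genes whose deviations were most like those of DUSP6 were BTBD2, HLA-E and ELAVL1, chosen among 6642 genes with a mean of at least 5 FPKM. The root-mean-square difference from DUSP6 on the log2 scale was 0.0229, 0.0272 and 0.0303, beside a median of 0.116 for all genes compared. Likeness over 6 libraries that barely differ is a description only.

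DUSP10 encodes MKP-5, a phosphatase of p38 and JNK more than of ERK. The gene (ENSG00000143507, chr1:221701424-221742176, minus strand) had 28, 27 and 26 reads in control and 24, 28 and 40 reads in I3 libraries. These correspond to 0.525 ± 0.0175 FPKM and 0.586 ± 0.151 FPKM (SD, n = 3 each). I3 held both the lowest and the highest library, and the log2 fold change of 0.074 had the widest interval of the 10, −0.35 to 0.50 (limma p = 0.694, adjusted p = 0.998, exact permutation p = 0.8). With so few reads the change of DUSP10 was only loosely bounded, and the 0.5 FPKM added before the logarithm understates it at this level. voom on the rebuilt reads gave a log2 fold change of 0.13.

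The 6 phosphatase transcripts together summed to 45.2, 48.9 and 44.5 FPKM in control and to 39.8, 43.4 and 40.8 FPKM in I3 libraries. The sum was lower in every I3 library, at 41.3 ± 1.88 FPKM against 46.2 ± 2.39 FPKM (SD, n = 3 each). Without DUSP2 the sums were 34.6 ± 1.92 FPKM and 35.6 ± 1.09 FPKM and overlapped. DUSP2 made up 20.4%, 25.4% and 22.7% of the sum in control and 18.2%, 16.4% and 14.1% in I3 libraries. These sums were chosen with the DUSP2 values known, and no test was run on them.

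Sprouty proteins are adaptor proteins that are phosphorylated after receptor activation and block the path from receptor to RAS and RAF. SPRY2 (ENSG00000136158, chr13:80335976-80340951, minus strand) stood at 11.7, 11.4 and 10.8 FPKM in control and at 10.7, 12.2 and 12.1 FPKM in I3 libraries. I3 1 was again the lowest of the 6 and the other two I3 libraries were the highest, so the groups overlapped. The log2 fold change was 0.040 with a 95% interval of −0.13 to 0.21 (limma p = 0.591, adjusted p = 0.998, exact permutation p = 0.6). SPRY1 (ENSG00000164056, chr4:123396795-123403760, plus strand) stood at 2.71, 1.93 and 2.75 FPKM in control and at 2.15, 2.38 and 2.26 FPKM in I3 libraries. Here the controls spread more widely than the I3 libraries, which lay between them. The change of SPRY1 was −0.089 on the log2 scale, with a 95% interval of −0.40 to 0.22 (limma p = 0.522, adjusted p = 0.998, exact permutation p = 0.6).

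SPRED proteins bind neurofibromin, a RAS GTPase-activating protein, and bring it to RAS at the membrane. SPRED1 (ENSG00000166068, chr15:38252326-38357249, plus strand) was at 2.23, 1.78 and 1.56 FPKM in control and at 1.87, 1.84 and 2.01 FPKM in I3 libraries. All I3 values lay within the range of the controls. Its log2 fold change was 0.039, with a 95% interval of −0.26 to 0.34 (limma p = 0.766, adjusted p = 0.998, exact permutation p = 0.8). SPRED2 (ENSG00000198369, chr2:65310851-65432637, minus strand) was at 6.84, 6.57 and 7.61 FPKM in control and at 7.84, 7.26 and 7.19 FPKM in I3 libraries. Control 3 lay among the I3 libraries, and the change of 0.080 on the log2 scale had a 95% interval of −0.099 to 0.26 (limma p = 0.327, adjusted p = 0.998, exact permutation p = 0.3). The 4 Sprouty and SPRED transcripts summed to 22.6 ± 0.863 FPKM in control and 23.3 ± 0.608 FPKM in I3 cells (SD, n = 3 each), a difference within the spread of the libraries.

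Of 7 further genes of these families, 3 passed the minimum, and the p before adjustment was above 0.05 in all 3. DUSP9, another phosphatase with a preference for ERK, stood at 5.81, 5.08 and 5.50 FPKM in control and at 5.44, 3.87 and 3.43 FPKM in I3 libraries. I3 1 lay among the controls and the other two I3 libraries lay below them, with a log2 fold change of −0.35 (limma p = 0.0523, adjusted p = 0.998, exact permutation p = 0.2). DUSP16, a JNK phosphatase, was at 10.5 ± 1.66 FPKM in control and 11.4 ± 1.32 FPKM in I3 cells, a log2 fold change of 0.12. DUSP7, an ERK phosphatase close to DUSP6, was at 7.95 ± 0.466 FPKM and 7.55 ± 0.620 FPKM, a log2 fold change of −0.071 (SD, n = 3 for each mean). With the GC trend removed from each library the changes were −0.26 for DUSP9, 0.087 for DUSP16 and −0.036 for DUSP7. SPRY4 (0.331 and 0.441 FPKM in control and I3 cells), SPRY3 (0.157 and 0.101 FPKM), DUSP8 (0.0368 and 0.0404 FPKM) and SPRED3 (0.0257 and 0.00638 FPKM) were below the minimum.

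The cascade that these proteins restrain was read from 19 genes of the RAS, RAF, MEK and ERK steps, all of which were tested. None was called at the adjusted p, and at an unadjusted p under 0.05 there were 2 lower genes and 0 higher, beside the 4.93% of all genes in either direction. HRAS, a RAS GTPase, stood at 11.8, 14.5 and 12.6 FPKM in control and 10.1, 11.7 and 8.98 FPKM in I3 libraries (log2 fold change −0.33, limma p = 0.0229, adjusted p = 0.942, exact permutation p = 0.1). HRAS was the 1 gene of the 19 whose groups did not overlap, beside 9.7% of all tested genes. MAPK3, which encodes ERK1, had means of 7.09 ± 0.604 FPKM and 6.07 ± 0.410 FPKM (SD, n = 3 each) and a log2 fold change of −0.21 (limma p = 0.0452, adjusted p = 0.998, exact permutation p = 0.2). MAP2K1, which encodes the kinase MEK1, had a log2 fold change of −0.24 (limma p = 0.0671, adjusted p = 0.998, exact permutation p = 0.2). After removal of the GC trend from each library the changes were −0.25 for HRAS, −0.17 for MAPK3 and −0.25 for MAP2K1. The median change over the 19 genes was 0.038 on the log2 scale.

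Other transcripts that ERK output drives, such as early growth response and ETS factors, gave 10 tested genes of 19 listed. EPHA4 was not analysed here and 8 genes were below the minimum. The p before adjustment was above 0.05 in all 10. The 3 with the lowest p in limma were CXCL8, which encodes the chemokine interleukin 8 (log2 fold change −0.31, exact permutation p = 0.1), the ETS factor ETV5 (−0.14, p = 0.2) and the immediate early factor FOS (−0.23, p = 0.1). With the GC trend removed from each library they changed by −0.39, −0.15 and −0.19. CXCL8 and FOS, 2 of the 10, did not overlap between the groups, beside 9.7% of all tested genes, and both were near the minimum, at 0.988 and 0.880 FPKM in control and 0.694 and 0.672 FPKM in I3 cells. At this level the 0.5 FPKM added before the logarithm understates the changes of CXCL8 and FOS. voom on the rebuilt reads gave −0.50 for CXCL8, −0.15 for ETV5 and −0.37 for FOS. The median change over the 10 genes in the main fit was −0.078.

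Among 13 other brakes and partners of the cascade, all tested, the ubiquitin ligase gene SIAH2, whose product targets SPRY2 for degradation, had the lowest p. SIAH2 stood at 16.9, 17.3 and 16.4 FPKM in control and at 13.1, 12.9 and 11.9 FPKM in I3 libraries. Every I3 library was below every control, and the gap between the groups was wider than the spread within either. SIAH2 was the 1 lower gene of the 13 whose groups did not overlap. Another 2 were higher without overlap, NF1 among them, beside 9.7% of all tested genes in either direction. The log2 fold change of −0.41 was below the fold threshold, with a limma p of 0.000231, an adjusted p of 0.428 and an exact permutation p of 0.1. RASA1, a RAS GTPase-activating protein gene, had a log2 fold change of 0.21 (limma p = 0.0461, adjusted p = 0.998, exact permutation p = 0.2). NF1, which encodes the neurofibromin that SPRED proteins recruit, had a log2 fold change of 0.14 (limma p = 0.0950, adjusted p = 0.998, exact permutation p = 0.1). Removal of the GC trend from each library left changes of −0.37 for SIAH2, 0.15 for RASA1 and 0.086 for NF1. Over all 4 lists of pathway genes, 45 genes were tested, 0 were called under either rule with the fold, and 1 was higher and 3 were lower at an unadjusted p under 0.05, beside 269 higher and 370 lower of all 12960 genes (4.93%).

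**Figure D4:**
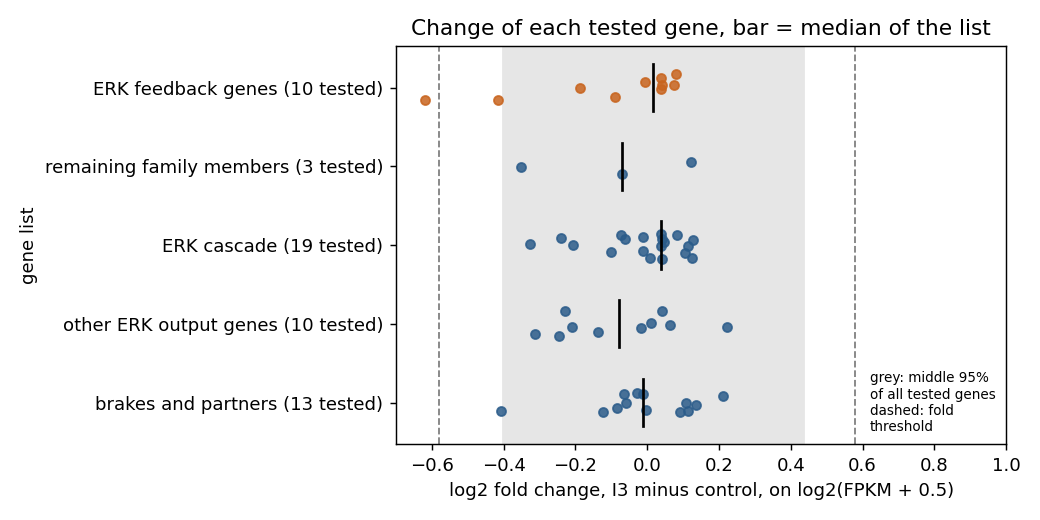
I3 minus control difference on the log2(FPKM + 0.5) scale (x axis) for each tested gene in the 10 feedback inhibitors and in 4 lists of pathway genes (rows), with bars at the medians. The grey band holds the middle 95% of all tested genes, from −0.40 to 0.44, with DUSP2, DUSP5 and SIAH2 outside it, and DUSP2 at −0.62 is the one gene beyond the dashed lines, which stand 0.58 to either side of 0.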

How the data were processed

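mRNA-seq of 6 Kasumi-1 libraries was analysed, 3 control and 3 I3, grouped by the sample labels. The labels and the methods name the compound I3, whereas the table itself was deposited under a name that spells it I13, and its values cannot settle the name. The authors deposited 1 FPKM value per gene and library and no read counts. The submitters' processing notes name Trimmomatic, HISAT2, Cufflinks, HTSeq and hg38, without versions. The annotation, and the strand setting for counting the stranded libraries, were not given in the sources used here.

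Identifiers were matched to GENCODE 29 (29703 of 29810), whose exon lengths were used to rebuild reads. All 6 values were whole within 0.1 read for 95.8% of 26519 genes. The library totals behind the FPKM scaling, found from the size of 1 read, were 17500320 to 18193373 reads, so counting error is large only for genes with few reads.

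I3 was compared with control by limma 3.58.1 in R 4.3.3 (lmFit, eBayes with trend) on log2(FPKM + 0.5), which understates the change of low genes, over 12960 genes with a mean of at least 0.5 FPKM, with Benjamini-Hochberg adjustment over all of them. The study's DESeq test needs counts, which the authors did not supply, and it was not run on the rebuilt reads. With it the study reported genes changed in both directions at its thresholds, whereas limma called none here. A gene was called at an adjusted p below 0.05 with a change of 0.58 or more on the log2 scale, as in the methods. A looser rule took the unadjusted p. Exact permutation tests (two-sided) used scipy 1.17.1. Figures were drawn with matplotlib 3.10.9.

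Named genes are all 10 members, the 7 remaining family genes, each pathway gene called under either rule, the 3 with the lowest p in each pathway list, and the 3 profiles closest to the most abundant member. The members, lists and tests were chosen with earlier results of these data known. The scripts were tested on simulated data. Alternatives were other pseudocounts, minimums and scalings, no trend, a replicate block, a GC correction (lowess, span 0.3), the direction of the GC trend as a term, voom on the rebuilt reads (13606 genes averaging 10 or more), and each library left out. The GC correction together with the block was added after seeing the data. No library was a copy of another of its group, since the reads of replicates differed by 4.60 to 15.2 times sampling noise (chi-square per degree of freedom). Libraries of different groups were not compared in this way.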

Additional observations from a re-analysis of the deposited data

How the results depend on the processing

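The number of members called at the adjusted p was 0 in every alternative. The share of all genes called is given for the main fit only. With an unadjusted p and the fold, the 1 member called (DUSP2) fell to 0 with the GC correction and with the library cluster term (the direction of the GC trend), and to 0 to 1 with libraries left out (0 without control 2 and without I3 3). DUSP2 ranged from −0.66 to −0.50 in log2 fold change except without control 1 (−0.71) and without I3 1 (−0.67), with an adjusted p of 0.301 to 1.00 in limma. Members whose groups do not overlap numbered 2 with quantile normalization (DUSP2 and DUSP5), beside 9.45% of all tested genes. With libraries left out they numbered 1 to 4, where 16.1% to 31.0% of all tested genes do not overlap because fewer libraries are compared. They were 2 without control 1 or control 2, 3 without control 3 and 4 without I3 1. Changes near 0 turned in sign. DUSP6 gave 0.0043 after rescaling to TPM, 0.0070 after quantile normalization, 0.016 with the library cluster term and −0.056 to 0.065 with libraries left out. SPRED1 gave −0.025 with the library cluster term and −0.052 to 0.15 with libraries left out. DUSP10 gave −0.035 to 0.16 and DUSP16 −0.0027 to 0.22 with libraries left out.

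The labels do not say whether same-numbered libraries were paired. Same-numbered libraries deviated together with r = 0.063, 0.15 and −0.024, and differently numbered ones with r from −0.17 to 0.10. With 3 libraries in each group, these values cannot decide whether the libraries were paired. With the replicate block DUSP2 remained at −0.62 with an adjusted p of 0.671 in limma. DUSP5 remained at −0.41, with an unadjusted p of 0.00436 and an adjusted p of 0.671 in limma. The block changed no call of a member. With the block and the GC correction together, added after seeing the data, DUSP2 was −0.56 with an adjusted p of 0.551. The depth limits DUSP10 most, at 81 control and 92 I3 reads.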
